A study of Homo sapiens with 8 samples.

Results

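The 10 genes described here encode the NF-κB transcription factor family, the inhibitors that hold it in the cytoplasm, and 2 regulators beside them. They were chosen by symbol, with no measured value in the rule: the subunit genes NFKB1, NFKB2, REL, RELA and RELB, the inhibitor (IκB) genes NFKBIA, NFKBIB and NFKBIE, the nuclear IκB-like gene NFKBIZ, and TNFAIP3, which encodes A20. Earlier results of these data were known when these genes were chosen. All 10 were found among 26372 gene symbols in the deposited table. The cells were BE(2)-M17, a human neuroblastoma line labelled M17, cultured with IFN-γ at 10 ng/ml for 24 h in 4 libraries or left untreated in 4 libraries. The series title concerns the lncRNA GOMAFU and neuronal interferon response pathways, and no library used here is labelled with a genetic change beyond the line itself. The labels' growth protocol also names SH-SY5Y, a second neuroblastoma line, but every library is labelled M17. Total RNA was depleted of ribosomal RNA and sequenced in pairs of reads, and expression is given as FPKM, fragment counts scaled by transcript length and by the mapped fragments of the library. The labels do not say that replicate libraries are separate cultures, so every p-value measures only the spread between libraries, which may be technical.

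NF-κB proteins bind DNA as dimers. The precursors encoded by NFKB1 and NFKB2 are cut to the subunits p50 and p52, whereas RELA, REL and RELB carry an activation domain. In resting cells IκBα, IκBβ and IκBε, the products of NFKBIA, NFKBIB and NFKBIE, mask the dimers. Receptor signals activate the IκB kinase (IKK), IκB is ubiquitinated and degraded, and the freed dimers bind κB sites in DNA. NFKBIA, NFKBIE and TNFAIP3 are themselves textbook NF-κB targets that close a negative feedback loop. IFN-γ signals mainly through JAK kinases and the GAS sites in DNA that their signal reaches, and interferon regulatory factors bind ISRE sites.

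Promoter windows of 250 bases before a gene start were taken from RefSeq (GRCh38.p14) and searched on both strands for the κB consensus, for GAS (TTCNNNGAA) and for the ISRE core (TTTCNNTTTC). Of the 10 genes, 8 matched the table, with 14 windows because several have more than 1 start, while RELB and NFKBIE did not match. The κB consensus was found in 9 windows of 7 genes, and in 9.96% of all 35116 windows. GAS and ISRE letters were found in 1 of the 14 windows each, both times in the upstream window of RELA, against 6.57% and 3.02% of all windows. The 3 windows below are shown for the gene called higher with IFN-γ, the most abundant inhibitor, and the window with the interferon-related letters. They are printed 5′ to 3′ on the gene's strand, with matches in capitals: κB in NFKBIZ and NFKBIA, and first ISRE, then GAS, in RELA.
NFKBIZ, chr3:101827740-101827989, plus strand: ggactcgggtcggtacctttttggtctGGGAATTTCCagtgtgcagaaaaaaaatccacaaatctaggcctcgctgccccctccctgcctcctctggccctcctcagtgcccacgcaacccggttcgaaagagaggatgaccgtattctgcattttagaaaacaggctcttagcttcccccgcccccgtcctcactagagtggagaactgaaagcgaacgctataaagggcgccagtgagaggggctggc
NFKBIA, chr14:35404750-35404999, minus strand: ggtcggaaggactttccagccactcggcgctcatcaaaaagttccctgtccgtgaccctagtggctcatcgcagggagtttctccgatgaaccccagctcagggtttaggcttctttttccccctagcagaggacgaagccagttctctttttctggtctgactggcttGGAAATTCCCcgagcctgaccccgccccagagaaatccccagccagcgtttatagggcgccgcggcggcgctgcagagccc
RELA, upstream start, chr11:65663858-65664107, minus strand: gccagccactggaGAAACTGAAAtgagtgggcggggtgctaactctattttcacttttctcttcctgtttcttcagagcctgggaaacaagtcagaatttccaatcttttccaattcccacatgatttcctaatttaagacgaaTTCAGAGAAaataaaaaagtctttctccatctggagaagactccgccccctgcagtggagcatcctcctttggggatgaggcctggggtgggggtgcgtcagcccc
The κB match began 223 bases before the gene start in NFKBIZ and 81 bases before it in NFKBIA, where it lies on the opposite strand. The same 10 letters, GGGAATTTCC, also occurred in windows of NFKB1, REL and NFKBIB. The window of TNFAIP3 held GGGACTTTCC and GGGGATTTCC, both on the strand opposite to the gene. In RELA the ISRE letters began 237 bases and the GAS letters 106 bases before the upstream start. A match is a run of letters and no evidence of binding.

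On the deposited FPKM scale, NFKBIE was lower (a direction that turns round in TPM, each FPKM as a share of its library's FPKM sum) and NFKBIZ higher with IFN-γ, and no subunit gene passed the test in either direction. NFKBIE was at 0.802 times and NFKBIZ at 1.33 times its untreated level. The test was limma on log2(FPKM + 0.1) over the 13598 genes that averaged 0.5 FPKM or more, two-sided, with Benjamini-Hochberg adjusted p below 0.05 as the threshold. RELB and TNFAIP3 lay below that mean and were not tested. Of the 8 tested, 2 were called (25%), 1 higher and 1 lower, where 22.3% of all tested genes were called, 13.3% higher and 9.05% lower. The share among the 8 is therefore close to that of the whole transcriptome. The groups of 4 libraries did not overlap for 3 of the 8 (REL, NFKBIE and NFKBIZ), against 28.2% of all tested genes. The median log2 change was -0.09 over the 8 and -0.005 over all tested genes. In bulk RNA, fewer cells with a transcript and less of it per cell cannot be told apart.

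**Figure D1:**
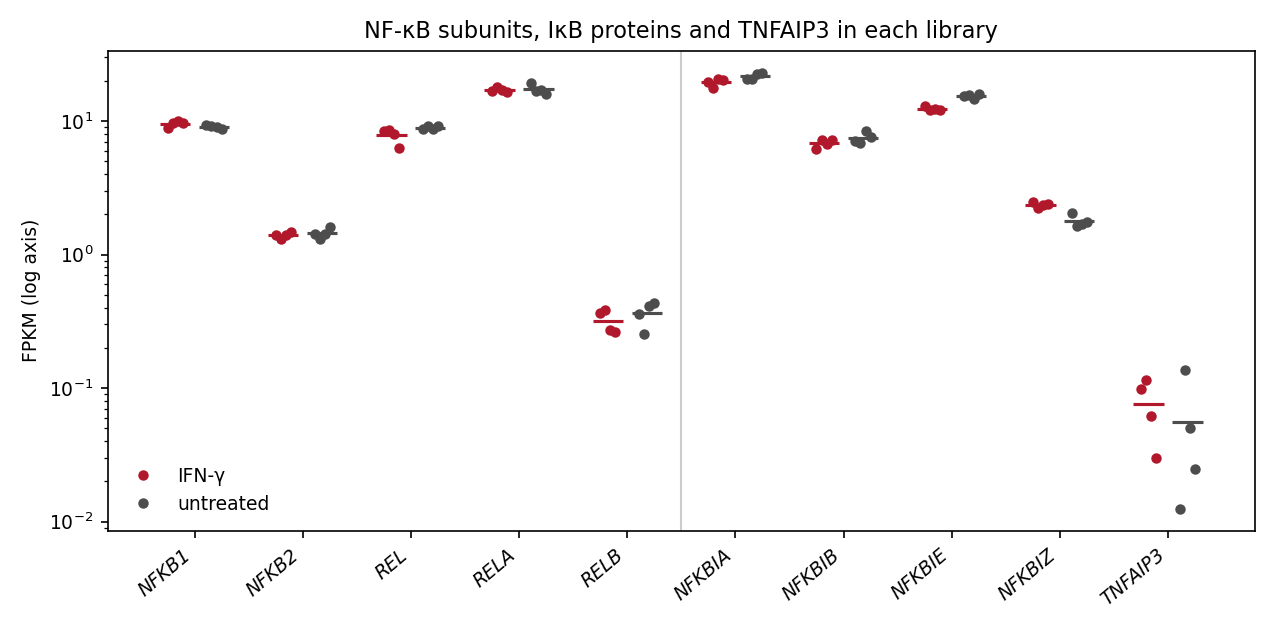
FPKM of the 10 genes in each library on a log axis, IFN-γ left and untreated right for each gene, with a point per library and a bar at the mean. The points of NFKBIE lie at 12.1 to 12.96 FPKM with IFN-γ, below 14.7 to 15.8 FPKM untreated (not so in TPM), and those of NFKBIZ at 2.22 to 2.48 FPKM, above 1.64 to 2.04 FPKM.

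RELA (chr11:65653596-65663094, minus strand), whose product p65 carries the main activation domain of the common p50:p65 dimer, was the most abundant subunit transcript. It was at 16.8, 17.9, 16.96 and 16.4 FPKM in IFN-γ replicates 1 to 4, against 19.2, 16.9, 17.1 and 16.0 FPKM in untreated replicates 1 to 4. The groups overlapped almost fully, and the means were 17.03 ± 0.659 FPKM with IFN-γ and 17.3 ± 1.33 FPKM untreated (SD, n = 4 each). The log2 change was -0.02, with a 95% interval of -0.15 to 0.11 (limma adjusted p = 0.854).

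NFKB1 (chr4:102501329-102617302, plus strand), the source of p50, was at 8.88, 9.60, 10.1 and 9.62 FPKM with IFN-γ, against 9.27, 9.14, 9.01 and 8.70 FPKM untreated. IFN-γ replicates 2 to 4 lay above all untreated libraries and replicate 1 lay among them. The log2 change was 0.08, with a 95% interval of -0.04 to 0.19 (limma adjusted p = 0.335). NFKB2 (chr10:102394110-102402529, plus strand), which encodes the p100 precursor of the non-canonical pathway, was low, at 1.41, 1.31, 1.39 and 1.49 FPKM with IFN-γ and 1.42, 1.31, 1.42 and 1.62 FPKM untreated. The groups overlapped and the log2 change was -0.04 (-0.28 to 0.21, limma adjusted p = 0.837).

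REL (chr2:60881521-60931610, plus strand), which encodes c-Rel, a subunit best known from lymphocytes, was at 8.42, 8.54, 7.97 and 6.31 FPKM with IFN-γ, against 8.67, 9.20, 8.75 and 9.15 FPKM untreated. Every IFN-γ library lay below every untreated one, with replicate 4 lowest. The log2 change was -0.20, with an SE of 0.09, and missed the threshold (limma adjusted p = 0.144). Without IFN-γ replicate 4 it was -0.10 (limma adjusted p = 0.135), and in a two-sided exact permutation test of this gene alone p was 0.0286, the smallest that 4 against 4 libraries allow. That p is not adjusted for the genes looked at. Any gene whose groups do not overlap gets it, which holds for 28.2% of all tested genes. Exons of REL overlap those of another annotated gene on the same strand, so its level is uncertain.

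RELB (chr19:45001430-45038198, plus strand), the usual partner of p52, was at 0.362, 0.382, 0.271 and 0.262 FPKM with IFN-γ, against 0.356, 0.255, 0.413 and 0.437 FPKM untreated. The groups overlapped (two-sided exact permutation p = 0.4). At the depth estimated from the files these values stand for 10.4 to 16.2 fragments per library, whose counting error alone would be 27.5% of the mean. The spread observed between libraries was smaller, at 19.3% of the mean with IFN-γ and 22.1% untreated. A change of the size seen in NFKBIE may thus not have been detectable. The estimate lies below the sequencing target in the labels, and a greater true depth would make the counting error smaller.

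The 3 classical inhibitors all had lower mean FPKM with IFN-γ, with the opposite sign in TPM, and 1 of them passed the test. NFKBIA (chr14:35401511-35404749, minus strand), which encodes IκBα, the fast-turnover inhibitor, was at 19.5, 17.7, 20.7 and 20.3 FPKM with IFN-γ, against 20.7, 20.7, 22.5 and 23.1 FPKM untreated. IFN-γ replicates 1, 2 and 4 lay below every untreated library, and replicate 3 exceeded the lowest untreated library only in the fourth digit, at 20.69 against 20.67 FPKM. The log2 change was -0.15, with an SE of 0.06 and a 95% interval of -0.29 to -0.02, and missed the threshold (limma adjusted p = 0.0969). It passed at -0.22 after quantile normalization (limma adjusted p = 0.0187) and at -0.25 in TPM without short RNA genes (limma adjusted p = 0.0236), settings that move the median of all genes by -0.07 and -0.09.

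NFKBIB (chr19:38899700-38908893, plus strand), which encodes the slowly degraded IκBβ, was at 6.17, 7.15, 6.69 and 7.18 FPKM with IFN-γ, against 7.10, 6.85, 8.36 and 7.62 FPKM untreated. The groups overlapped and the log2 change was -0.14 (-0.31 to 0.04, limma adjusted p = 0.250). Its exons overlap, over a short stretch, those of SIRT2 on the other strand, and the kit named in the labels does not mark strand.

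NFKBIE (chr6:44258166-44265788, minus strand), which encodes IκBε, an inhibitor resynthesised after NF-κB activation and known to hold RELA- and c-Rel-containing dimers, was at 12.96, 12.2, 12.2 and 12.1 FPKM with IFN-γ, against 15.5, 15.7, 14.7 and 15.8 FPKM untreated. All 4 IFN-γ libraries lay below all 4 untreated ones, and the gap between the groups was wider than the range within either. NFKBIE averaged 12.4 ± 0.392 FPKM with IFN-γ and 15.4 ± 0.512 FPKM untreated (SD, n = 4 each), 0.802 times the untreated level. The log2 change was -0.32, with an SE of 0.04 and a 95% interval of -0.42 to -0.22 (limma adjusted p = 0.000512). Leaving out any single library, the change was between -0.34 and -0.30 and passed the test each time (limma adjusted p = 0.000505 to 0.00309).

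Rescaling to TPM moved the median log2 change of all tested genes by 0.79, because the short RNA gene SNORD3A held 0% of the FPKM sum in every IFN-γ library and 5.97 to 57.9% in the untreated ones. In TPM the log2 change of NFKBIE was 0.48 and not called (limma adjusted p = 0.146), which is -0.31 relative to that shift. In TPM without short RNA genes NFKBIE was called lower, at -0.41 (limma adjusted p = 0.00207). It was also called lower after quantile normalization, at -0.37 (limma adjusted p = 0.000167). The deposited FPKM are the scale of every change given here unless another scale is named. Their median over tested genes lay between 9.14 and 9.28 in IFN-γ libraries and between 8.93 and 8.98 in untreated ones.

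**Figure D2:**
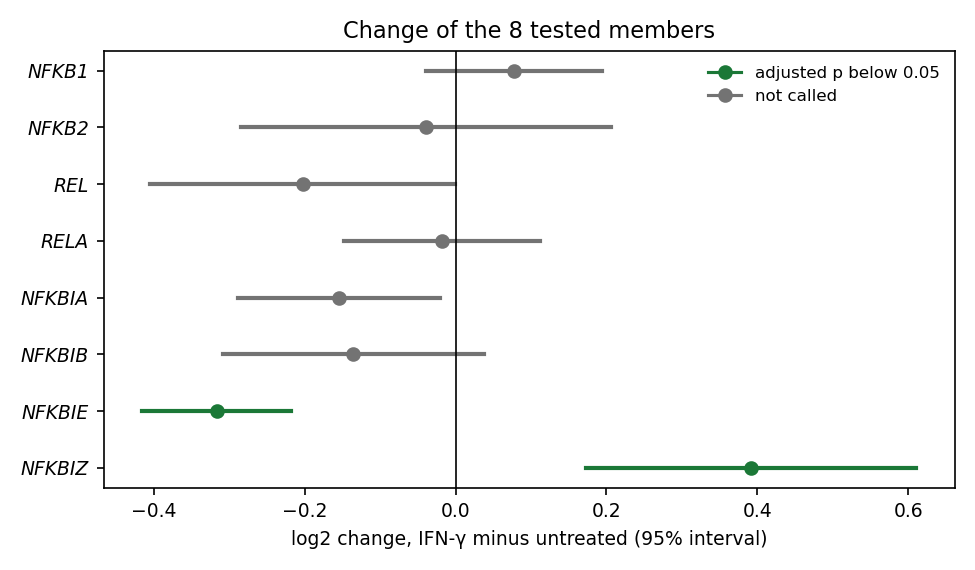
log2 change, IFN-γ minus untreated, of the 8 tested genes as points with their 95% intervals from limma as bars, green where the adjusted p was below 0.05 and grey otherwise. The interval of NFKBIE (-0.42 to -0.22) lies wholly below 0, though not in TPM, and that of NFKBIZ (0.17 to 0.61) wholly above it.

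NFKBIZ (chr3:101827991-101861022, plus strand) encodes IκBζ, an inducible nuclear protein that binds p50 and acts as a cofactor at a subset of NF-κB targets. It was at 2.48, 2.22, 2.34 and 2.40 FPKM with IFN-γ, against 2.04, 1.64, 1.70 and 1.74 FPKM untreated. All IFN-γ libraries lay above all untreated ones, the highest of which was replicate 1. NFKBIZ averaged 2.36 ± 0.107 FPKM with IFN-γ and 1.78 ± 0.176 FPKM untreated (SD, n = 4 each), 1.33 times the untreated level. The log2 change was 0.39, with an SE of 0.10 and a 95% interval of 0.17 to 0.61 (limma adjusted p = 0.0168). The call was lost without untreated replicate 2 (0.36, limma adjusted p = 0.0525) and in TPM without short RNA genes (0.31, limma adjusted p = 0.0993). Over all settings the adjusted p was between 0.00564 and 0.0993.

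TNFAIP3 (chr6:137867188-137883312, plus strand), which encodes A20, a ubiquitin-editing enzyme that shuts off signalling to IKK, was close to absent. It was at 0.0988, 0.116, 0.0614 and 0.0298 FPKM with IFN-γ, against 0.0124, 0.136, 0.04997 and 0.0247 FPKM untreated. The groups overlapped (two-sided exact permutation p = 0.6). At the same estimated depth these levels stand for 1.0 to 12.2 fragments per library, so neither a rise nor its absence can be read from them, and its exons overlap those of a gene on the other strand.

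From highest to lowest mean FPKM the order in IFN-γ libraries was NFKBIA, RELA, NFKBIE, NFKB1, REL, NFKBIB, NFKBIZ, NFKB2, RELB and TNFAIP3. It was the same in untreated libraries. FPKM are per length, so levels of different genes can be set side by side, though that of REL is uncertain because of its exon overlap. Among neighbours in that order, the ranges of NFKBIA and RELA and those of REL and NFKBIB overlapped with IFN-γ. In untreated libraries only NFKB1 and REL did, at 9.03 ± 0.246 and 8.94 ± 0.271 FPKM.

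The 5 subunit transcripts together came to 36.1 ± 1.57 FPKM with IFN-γ (34.0 to 37.8) and 37.1 ± 1.27 FPKM untreated (35.9 to 38.9), and these ranges overlapped. RELA made up 47.2% of that sum with IFN-γ and 46.6% untreated, NFKB1 26.5% and 24.4%, and REL 21.6% and 24.2%. NFKB2 held 3.89% with IFN-γ and 3.90% untreated, and RELB 0.882% and 0.987%. The subunits of the canonical pathway thus accounted for nearly all subunit RNA in either group. The uncertain level of REL enters the sum and all these shares.

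The 3 inhibitors together came to 38.6, 37.0, 39.6 and 39.6 FPKM in IFN-γ libraries, against 43.3, 43.2, 45.5 and 46.5 FPKM in untreated ones, on the FPKM scale on which all 3 means were lower and which TPM turns round for each of them. Every IFN-γ library lay below every untreated one, at 38.7 ± 1.22 FPKM with IFN-γ and 44.6 ± 1.64 FPKM untreated (SD, n = 4 each). Of the difference of -5.95 FPKM, NFKBIE gave -3.06 FPKM (51.5%), NFKBIA -2.20 FPKM (37.0%) and NFKBIB -0.686 FPKM (11.5%). The ratio of inhibitor to subunit FPKM, which is free of a library's scale, was 1.07 ± 0.0751 with IFN-γ (0.980 to 1.16) and 1.21 ± 0.0787 untreated (1.11 to 1.29). Its ranges overlapped. These sums were formed with the results known and carry no test.

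**Figure D3:**
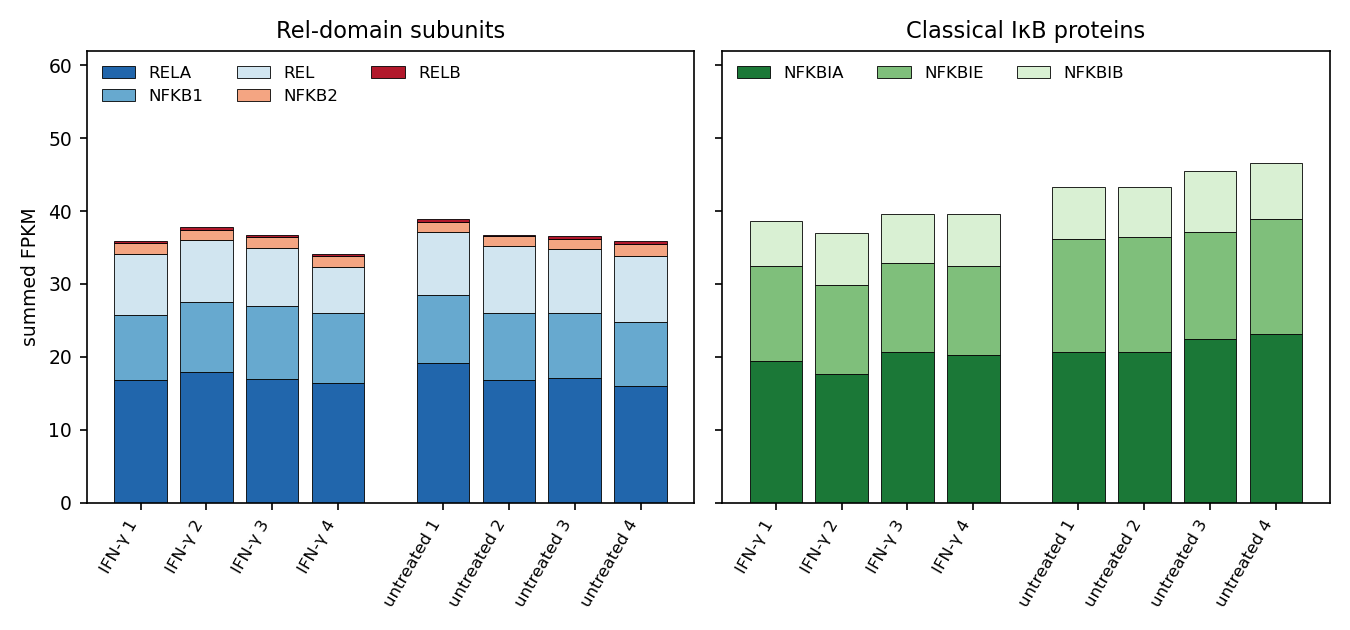
Summed FPKM of the 5 subunit genes and of the 3 classical inhibitor genes in each library, stacked by gene, with IFN-γ libraries left of untreated ones. The inhibitor stacks reach 37.0 to 39.6 FPKM with IFN-γ and 43.2 to 46.5 FPKM untreated, a difference of opposite sign in TPM, while the subunit stacks overlap.

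Around these genes, 101 others in 7 lists cover the pathway from receptor to target, and 70 of them reached the mean of 0.5 FPKM. Of the 70, 22 were higher and 3 lower with IFN-γ (35.7% called, against 22.3% of all tested genes), with a median log2 change of 0.09. Genes that pass the filter only through their IFN-γ libraries, such as TLR3 and ICAM1, had to differ. The lists were also chosen with earlier results of these data known, so this share is a description.

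Among 14 receptor genes 6 were tested, and 4 were higher and none lower (66.7% called, against 22.3% of all tested genes). TNFRSF1A, the main receptor for TNF, was at 3.81, 3.69, 3.74 and 3.83 FPKM with IFN-γ and 1.12, 1.19, 0.874 and 1.06 FPKM untreated (log2 change 1.74, limma adjusted p = 8.97e-07). TLR3, a sensor of double-stranded RNA, was at 1.56, 1.29, 1.45 and 1.73 FPKM with IFN-γ and listed at 0 in all 4 untreated libraries. TNFRSF12A, the receptor for TWEAK, averaged 3.49 ± 0.716 FPKM with IFN-γ and 2.07 ± 0.433 FPKM untreated (log2 change 0.73, limma adjusted p = 0.0108), and TNFRSF21 was also called higher. The groups did not overlap for 5 of the 6 tested receptors, against 28.2% of all tested genes. These were the 4 called higher and IL1R1, named after its values were seen. TLR3, counted in both shares, passes the filter only through its IFN-γ libraries, so it had to differ. IL1R1 was lower and not called, at 0.894 ± 0.0426 FPKM with IFN-γ and 1.13 ± 0.106 FPKM untreated (log2 change -0.31, limma adjusted p = 0.111).

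Of 21 adaptors and ubiquitin ligases 18 were tested, with 7 higher and none lower (38.9% called, against 22.3% of all tested genes). RBCK1 (HOIL-1), a subunit of the linear ubiquitin ligase LUBAC, averaged 18.5 ± 0.495 FPKM with IFN-γ and 8.54 ± 0.621 FPKM untreated (log2 change 1.11, limma adjusted p = 2.10e-07). RNF31 (HOIP), its catalytic subunit, averaged 10.1 ± 0.743 FPKM with IFN-γ and 6.0997 ± 0.163 FPKM untreated (0.71, limma adjusted p = 1.44e-05). The remaining LUBAC gene, SHARPIN, named after its values were seen, was at 6.41 ± 0.120 FPKM with IFN-γ and 6.55 ± 0.428 FPKM untreated and was not called. MYD88, the adaptor of most Toll-like and interleukin-1 receptors, averaged 9.71 ± 0.423 FPKM with IFN-γ and 5.27 ± 0.156 FPKM untreated (0.87, limma adjusted p = 1.01e-06). RIPK1, TRAF6, BIRC2 and BCL10 were the other 4 called higher.

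Of 12 genes of IKK and related kinases 11 were tested, with 3 higher and 1 lower (36.4% called, against 22.3% of all tested genes). IKBKG (NEMO), the regulatory subunit of IKK, averaged 4.85 ± 0.168 FPKM with IFN-γ and 3.83 ± 0.157 FPKM untreated (log2 change 0.33, limma adjusted p = 0.00393), a call lost in TPM without short RNA genes (limma adjusted p = 0.1). TBK1, an IKK-related kinase of the antiviral response, averaged 21.2 ± 0.942 FPKM with IFN-γ and 16.1 ± 0.746 FPKM untreated (0.39, limma adjusted p = 0.000231). Its adaptor TANK averaged 13.2 ± 1.49 FPKM with IFN-γ and 10.9 ± 0.581 FPKM untreated, a call (0.27, limma adjusted p = 0.0323) that was lost when any of IFN-γ replicate 3 or untreated replicates 1, 2 or 4 was left out (limma adjusted p = 0.0629 to 0.0878). The TANK call was also lost with the replicate number as a block (limma adjusted p = 0.051), without the variance trend (0.0539), after quantile normalization (0.0537) and in TPM without short RNA genes (0.0706). Another TBK1 adaptor, AZI2, was lower at 12.3 ± 0.442 FPKM with IFN-γ against 14.5 ± 0.458 FPKM untreated (-0.23, limma adjusted p = 0.00426, and 0.57 in TPM, which is -0.22 relative to the shift of all genes).

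The machinery that ubiquitinates IκB showed no call. Of 7 tested genes of the SCF ubiquitin ligase and its NEDD8 modification none was called, against 22.3% of all tested genes (median log2 change 0.05). NEDD8, the most abundant, was at 193 ± 23.8 FPKM with IFN-γ and 186 ± 3.12 FPKM untreated, and SKP1 was at 130.2 ± 13.8 FPKM with IFN-γ and 123 ± 3.64 FPKM untreated. The groups did not overlap for 2 of the 7, BTRC and RBX1, both named after their values were seen, against 28.2% of all tested genes. BTRC was lower, at 8.81 ± 0.750 FPKM with IFN-γ and 9.75 ± 0.242 FPKM untreated (log2 change -0.15, limma adjusted p = 0.143). RBX1 was higher, at 83.6 ± 20.9 FPKM with IFN-γ and 68.7 ± 2.01 FPKM untreated (0.25, limma adjusted p = 0.206). None of 9 other IκB-like and NF-κB regulators was called either, against the same 22.3% (median log2 change -0.003). Lists of 7 and 9 genes are too short to read their lack of calls as a result. Their most abundant were COMMD1, at 33.0 ± 1.76 FPKM with IFN-γ and 30.0 ± 2.79 FPKM untreated, and NKIRAS2, at 21.5 ± 1.05 FPKM with IFN-γ and 20.9 ± 0.951 FPKM untreated. NFKBID, the gene of the nuclear IκBNS and named after its values were seen, was the single gene of these 9 whose groups did not overlap, at 0.775 ± 0.203 FPKM with IFN-γ and 1.07 ± 0.0448 FPKM untreated (log2 change -0.45, limma adjusted p = 0.116). Of all tested genes, 28.2% did not overlap, so 1 of 9 is no excess.

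Among 10 partners of A20 and other deubiquitinases 9 were tested, with 2 higher and none lower. The share called, 22.2%, is close to the 22.3% of all tested genes. CYLD, which removes linear and lysine-63-linked ubiquitin chains, was at 8.51, 9.12, 8.51 and 7.69 FPKM with IFN-γ and 4.34, 4.42, 4.27 and 4.72 FPKM untreated (log2 change 0.91, limma adjusted p = 3.70e-06). TNIP2, an A20-binding protein, averaged 7.71 ± 0.774 FPKM with IFN-γ and 6.29 ± 0.568 FPKM untreated (0.29, limma adjusted p = 0.0450), a call lost in 6 of the 8 fits that left out 1 library (limma adjusted p = 0.0601 to 0.113). The TNIP2 call was also lost with the replicate number as a block (limma adjusted p = 0.0633), without a filter (0.0681), without the variance trend (0.0626), after quantile normalization (0.0656) and in TPM without short RNA genes (0.194).

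Of 30 textbook NF-κB targets 11 were tested, with 6 higher and 2 lower (72.7% called, against 22.3% of all tested genes). Of the 30, 8 were listed at 0 in all 8 libraries, among them IL6, TNF, CXCL1 and PTGS2. ICAM1, an adhesion molecule, was at 7.53, 7.36, 7.57 and 6.46 FPKM with IFN-γ and 0.111, 0.0626, 0.0371 and 0.0736 FPKM untreated. Its log2 change was 5.44 on the log2(FPKM + 0.1) scale, which understates changes of low genes. ICAM1, counted among the 6 higher, passes the filter only through its IFN-γ libraries, so it had to differ and no p-value is given. GADD45B, a stress-response gene, averaged 5.28 ± 1.13 FPKM with IFN-γ and 1.203 ± 0.376 FPKM untreated (2.07, limma adjusted p = 0.000100), and CCL2, a monocyte-attracting chemokine, 1.99 ± 0.538 FPKM with IFN-γ and 0.719 ± 0.307 FPKM untreated (1.40, limma adjusted p = 0.00544). The lower ones were PTX3, a soluble pattern-recognition protein, at 13.5 ± 0.747 FPKM with IFN-γ and 24.3 ± 0.748 FPKM untreated (-0.84, limma adjusted p = 6.04e-07), and SDC4, a cell-surface proteoglycan, at 4.36 ± 0.519 FPKM with IFN-γ and 5.95 ± 0.198 FPKM untreated (-0.45, limma adjusted p = 0.00388). In TPM these 2 were at -0.04 and 0.34, or -0.83 and -0.45 relative to the shift of all genes. Several of these target genes are also known to respond to interferon directly.

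**Figure D4:**
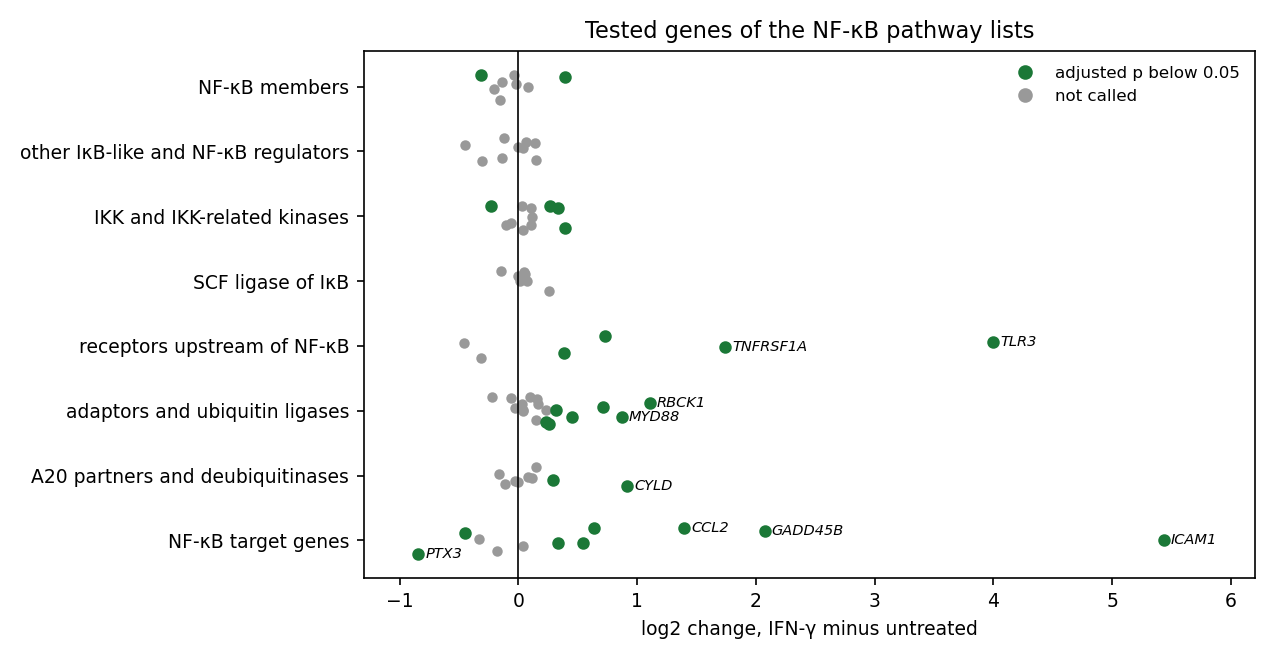
log2 change, IFN-γ minus untreated, of each tested gene in the 10 members and the 7 pathway lists, with a point per gene, green where the adjusted p was below 0.05 and grey otherwise, spread vertically only for legibility. The 8 tested members lie between -0.32 and 0.39, while receptors and targets reach 4.00 (TLR3, listed at 0 in untreated libraries) and 5.44 (ICAM1). Both TLR3 and ICAM1 pass the filter only through their IFN-γ libraries.

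The genes most like the 2 called members were sought among 13512 tested genes outside all lists, by the root mean square difference of log2 profiles centred on their means over the 8 libraries. For NFKBIE, whose own profile has a root mean square of 0.163, they were TTC3 (difference 0.0280), NDRG4 (0.0326) and TPCN1 (0.0343). TTC3 averaged 61.7 ± 1.03 FPKM with IFN-γ and 78.2 ± 1.16 FPKM untreated. For NFKBIZ, with 0.215, they were CCDC102A (0.0567), JUN (0.0601) and S1PR3 (0.0653). JUN averaged 10.7 ± 0.459 FPKM with IFN-γ and 8.42 ± 0.545 FPKM untreated. These profiles mostly reflect the step between the groups, which the search could not separate from other likeness.

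The libraries held an estimated depth of 14100000 to 20100000 fragments each, by a reading of the steps between low FPKM values. The labels name a higher sequencing target, and how it relates to this estimate could not be settled, so the fragment numbers and counting errors given here hold only if the estimate does. Pearson correlations of log2 profiles were at least 0.983 within a group and at most 0.938 between groups. IFN-γ replicate 4 stood apart: the variance between it and the other IFN-γ libraries was 5.08 to 5.94 times counting error, against 1.60 to 2.37 times in the 9 other pairs. Without it NFKBIE was at a log2 change of -0.31 (limma adjusted p = 0.000505) and NFKBIZ at 0.38 (limma adjusted p = 0.0246). All 7 neuroblastoma markers examined were tested and 2 were higher (CHGA and PHOX2A) and none lower. That is 28.6% called, against 22.3% of all tested genes. The median of their log2 changes was -0.05, and the 7 had a summed level of 2989 to 3259 FPKM with IFN-γ and 3036 to 3116 FPKM untreated. Most of that sum is MYCN, which is amplified in this line and was named after its values were seen, at 1817 ± 93.0 FPKM with IFN-γ and 2003 ± 26.1 FPKM untreated (limma adjusted p = 0.239). MYCN passed as lower when IFN-γ replicate 4 was dropped (limma adjusted p = 0.00104), after quantile normalization (0.00681) and in TPM without short RNA genes (0.000462), but as higher in plain TPM (0.041). On the deposited scale MYCN and HAND2 were not called, but each was lower in all 4 IFN-γ libraries than in any untreated one, while GATA3 and DBH had lower and TH higher means with IFN-γ, all 3 with overlapping groups and no call. In total, 4 of the 7 neuroblastoma markers (MYCN, HAND2, CHGA and PHOX2A) had groups that did not overlap, against 28.2% of all tested genes. Of 10 immune cell markers 1 was tested and none was called. CD3E, CD2 and MS4A1 were listed at 0 in all 8 libraries, and the 10 summed to 1.28 to 1.74 FPKM with IFN-γ and 1.06 to 1.38 FPKM untreated.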

How the data were processed

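RNA of 4 IFN-γ-treated and 4 untreated M17 libraries was measured. The authors deposited 1 table of FPKM per gene symbol and library. TopHat2, Cuffdiff and the build hg38 are named, per the submitters' processing notes, and sources used here give neither versions nor the annotation. Values were used as deposited, so a scaling of the FPKM by the authors cannot be undone. Groups were taken from the treatment labels.

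Genes averaging 0.5 FPKM or more over the 8 libraries were tested on log2(FPKM + 0.1) with limma 3.58.1 and a variance trend under R 4.3.3; p-values are two-sided and were adjusted over 13598 genes (Benjamini-Hochberg), with a threshold of 0.05. The script was tested on simulated data. Single genes were also compared by exact permutation over the 70 arrangements of the libraries. Fragments were estimated from the steps between low FPKM values and the lengths of 1604 genes with 1 transcript, of which 71.6 to 78.5% of values came out within 0.2 of a whole number. Fragment numbers are therefore estimates and cover counting error only. For each member they were computed with its longest annotated transcript. Positions are from GENCODE 29 (GRCh38, the assembly of hg38).

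Named besides the 10 genes were, in each pathway list, up to 3 called genes per direction with the greatest change, up to 2 of the most abundant where fewer than 2 were called, and the 3 nearest profiles of each called member. Exceptions are marked, and some marker genes are not reported here. The members and lists were chosen with earlier results of these data known. Alternatives were 2 other pseudocounts, no filter and a filter of 1 FPKM, 4 other scalings, a replicate block, limma without trend or with a robust fit, and leaving out each library.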

Additional observations from a re-analysis of the deposited data

Results flagged for a closer look

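In 4 of 87 groups of 4 libraries examined, 1 library lay far from the others by Dixon's criterion, and chance alone gives such a gap in roughly 5% of groups. NFKBIE was at 12.96 FPKM in IFN-γ replicate 1, against 12.14 to 12.21 FPKM in the other IFN-γ libraries, still below every untreated library. SKP1 was at 150.8 FPKM in IFN-γ replicate 4, against 122 to 125.7 FPKM in the others. TNFRSF12A was at 4.56 FPKM in IFN-γ replicate 4, against 3.034 to 3.198 FPKM. CD68, an immune cell marker, was at 0.801 FPKM in untreated replicate 4, against 0.5245 to 0.5528 FPKM.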

How the results depend on the processing

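Among the 8 tested members, pseudocounts, filters, median-of-ratios scaling, limma's options and the replicate block changed no direction and no call. TPM moved the median log2 change of all genes by 0.79, and gave 0.88 for NFKB1 (called), 0.72 for NFKB2, 0.59 for REL, 0.78 for RELA (called, limma adjusted p = 0.0286), 0.65 for NFKBIA, 0.66 for NFKBIB and 0.48 for NFKBIE, with 3 members called higher (NFKB1, RELA and NFKBIZ) and 0 lower, and 57 pathway genes higher and 0 lower. TPM without short RNA genes gave -0.0132 for NFKB1, -0.25 for NFKBIA (called) and 0.31 for NFKBIZ (not called), with 0 members higher and 2 lower and 5 pathway genes lower. Quantile normalization gave -0.22 for NFKBIA (called), with 2 members and 9 pathway genes lower. In these scalings the values moved with the median of all genes. The untested TNFAIP3 had a log2 change of 0.21 without a filter (limma adjusted p = 0.657) and RELB -0.14 (limma adjusted p = 0.690).

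Leaving out 1 library gave 0.05 to 0.11 for NFKB1, -0.0802 to 0.0135 for NFKB2, -0.25 to -0.10 for REL, -0.0532 to 0.0317 for RELA, -0.18 to -0.11 for NFKBIA, -0.18 to -0.08 for NFKBIB, -0.34 to -0.30 for NFKBIE and 0.36 to 0.46 for NFKBIZ, with 0 to 1 member higher, 1 to 1 lower, and 17 to 24 pathway genes higher and 3 to 5 lower. Among the other named genes, TPM reversed AZI2 (0.57), SDC4 (0.34), TTC3 (0.46), NDRG4 (0.46) and TPCN1 (0.48). Quantile normalization and TPM without short RNA genes reversed NKIRAS2 (-0.0283 and -0.0551), NEDD8 (-0.10 and -0.0430) and SKP1 (-0.0714 and -0.0160), and NEDD8 was at -0.0214 without IFN-γ replicate 4; the cause was not tested.

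Same-numbered libraries deviated together with correlations of -0.027 to 0.079, and differently numbered ones with -0.094 to 0.086. Each IFN-γ library was set against the untreated ones. For IFN-γ replicates 2, 3 and 4 the same-numbered value (0.079, 0.061 and 0.061) exceeded the highest other one (0.009, 0.02 and 0.048). For IFN-γ replicate 1 it did not (-0.027 against 0.086). That 0.086, with an untreated library numbered 2, 3 or 4, lies above every same-numbered value. The comparison was not made from the side of the untreated libraries. All these correlations are weak, and whether the numbers pair the libraries is not settled by them. With the replicate block, 1639 of all genes were higher and 1017 lower, against 1809 and 1230 without it, and NFKBIE (limma adjusted p = 0.00417) and NFKBIZ (0.0375) were called, at log2 changes of -0.32 and 0.39. At the estimated depth, precision is limited for RELB and TNFAIP3, whose counting errors were 27.5% and 43.2% of their means.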
